A study of Homo sapiens with 6 samples.

Results

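Gene expression in macrophage-like THP-1 cells transfected with a mimic of the miRNA let-7e-5p was compared with that in cells transfected with a negative control mimic (mimic NC). The comparison used the 2 arrays whose titles name these transfections, out of 6 in the series, and every one of the 21448 probe sets on them. All 6 cultures received 100 ng/ml of the phorbol ester PMA for 2 days and then a mimic mixed with Lipofectamine RNAiMAX for 24 h. The other 4 arrays came from the mimics of miR-151a-3p, miR-130a-3p, let-7d-3p and miR-146a-5p, and they served to show which differences were found on the let-7e-5p array and on no other. Groups were taken from the titles, since the treatment text speaks of let-7a-5p in all 6 samples. The labels do not explain the "2" that follows the control's name, and the extraction of RNA is given as Trizol in the labels and as RNeasy in the study's methods. No array lacks a mimic, so the effect of transfection itself was not measured.

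THP-1 is an established monocytic leukaemia line that stops dividing for the most part and takes on features of macrophages when it is treated with PMA. The let-7 family is an old and strongly conserved group of miRNAs which accumulate as cells differentiate. Loaded into an Argonaute protein, a let-7 strand pairs through its seed, the bases near its 5′ end, with sites in mRNAs and lowers the stability and translation of those mRNAs. Its best known targets are growth and oncofetal genes such as HMGA2, the IGF2BP family and RAS, and also DICER1, the enzyme that makes miRNAs. A mimic is a synthetic duplex that delivers such a strand in excess.

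The mature sequences show which of these RNAs can read the same sites. Capitals mark the seed, bases 2 to 8 counted from the 5′ end, and the sequences come from RefSeq with the GRCh38.p14 assembly.
let-7e-5p: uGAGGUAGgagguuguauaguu
let-7a-5p: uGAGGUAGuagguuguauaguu
let-7d-3p: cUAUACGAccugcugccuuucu
miR-146a-5p: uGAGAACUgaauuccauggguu
The let-7e-5p strand is encoded at chr19:51692793-51692814 (plus strand), let-7d-3p at chr9:94178895-94178916 (plus strand) and miR-146a-5p at chr5:160485372-160485393 (plus strand). Counting let-7e-5p itself, 11 mature miRNAs of the table carry its seed, let-7a-5p among them. From let-7a-5p, the miRNA that the treatment text names, let-7e-5p differs by U9G, with the base of let-7a-5p given first and positions counted from the 5′ end. The let-7d-3p strand comes from the opposite arm of a let-7 hairpin and has another seed, as does miR-146a-5p. Of the 3 mimics with a sequence shown that were transfected, let-7e-5p alone carries the let-7 seed.

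Values are log2 signals. There was 1 array for each transfection, so no value has a replicate, no error could be attached to a difference and no test was made. Precision is limited by this number of arrays throughout. Medians lay between 6.92 and 6.95 on the 6 arrays. A background of 5.39 was set from olfactory receptor genes, a family mostly silent outside the nose, and 13585 to 13869 probe sets per array exceeded it. When 1 of the arrays compared did not exceed this level, the ratio was taken to the background and is written as "at least". Of 28 macrophage and monocyte genes measured, 27 were above background with let-7e-5p and 26 with mimic NC, among them CD14, CSF1R, CD68 and SPI1. The labels also call the line lymphocyte-like. Of 13 T and NK cell markers 3 were above background with let-7e-5p and 4 with mimic NC (summed levels 61.8 and 63.1), and CD3D and CD2 were under it. The brightest of them was GNLY, singled out after its values were seen, at 9.90 and 9.96. Of 8 B cell markers 4 and 6 were above background (summed levels 47.0 and 47.4), none over 7.81, and MS4A1 was under it.

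The macrophage genes were alike on both arrays, 14 higher and 14 lower with let-7e-5p and none by 1.5-fold. CD163, a scavenger receptor for haemoglobin, was highest of the 6 arrays there (10.10 against 9.65 with mimic NC). CD14, the endotoxin co-receptor, was at its lowest there (10.68, against 10.76 to 11.54 on the other 5). In such bulk samples fewer cells of a type and less RNA per cell cannot be told apart.

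Over all probe sets, the difference between let-7e-5p and mimic NC had a median of 0.00 and a median size of 0.19, and the 99th percentile of its size was 0.98. At least 3-fold higher with let-7e-5p were 9 probe sets (0.042%) and at least 3-fold lower were 3 (0.014%). Those with a gene name were CCL2, CCL8, CXCL10, CXCL11 and RGS20 on the higher side and ZAN on the lower side, where both arrays were under background. The probe set just inside the higher threshold differed by 1.59 and the next one outside it by 1.5. At 2-fold, with the brighter array above background, 53 probe sets were higher (0.376%) and 38 lower (0.27%). Both arrays were above background for 28 of the former (0.209% of such probe sets) and 17 of the latter (0.127%).

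**Figure D1:**
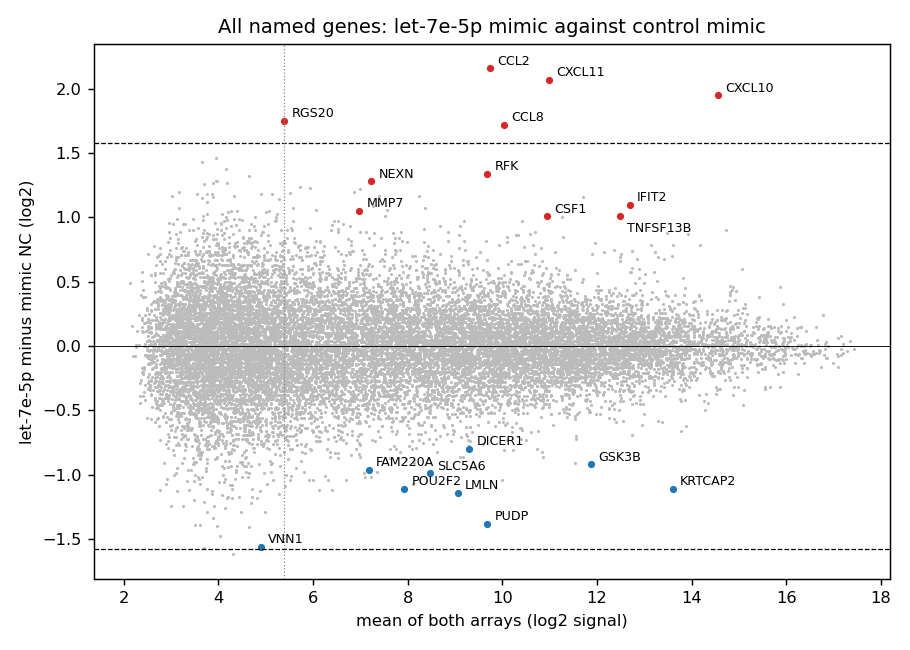
Each point is a named gene, with the mean log2 signal of the let-7e-5p and mimic NC arrays on the x axis and the log2 difference between them on the y axis. Dashed lines mark 3-fold and the dotted line the background of 5.39. CCL2, CXCL11, CXCL10 and CCL8 stand above the upper line at signals well over background, RGS20 lies near background, and no gene above background passes the lower line.

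In many of these probe sets the control array was itself at the end of the range, which a choice by the ratio to mimic NC favours. Of the 53 higher probe sets, mimic NC was the lowest of all 6 arrays in 31, and 13 of the 53 also exceeded the other 4 mimics, at their median, by 2-fold. Of the 38 lower probe sets, mimic NC was the highest array in 30, and 5 were also 2-fold below the other mimics. Over all named genes, mimic NC was the lowest array in 13.3% and the highest in 13.0%. RFK, the kinase that makes FMN from riboflavin, is an example. It was 2.53-fold higher with let-7e-5p (10.35 against 9.01), but the other 4 mimics read 9.98 to 10.57. PDIA4, a folding enzyme of the endoplasmic reticulum, was 1.74-fold higher than in the control, yet 1.05-fold lower than the other 4 mimics at their median. VLDLR, a lipoprotein receptor, was 1.68-fold higher and again 1.05-fold below them. For such genes the values of all 6 arrays are needed beside the ratio, and they are given for the genes below.

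A stricter question is which probe sets lay beyond all 5 other arrays by at least 1.5-fold. On the let-7e-5p array 14 probe sets stood high in this sense (0.0953%) and 18 stood low (0.123%). Counted the same way, mimic NC had 16 standing high (0.109%) and 24 standing low (0.163%). The other mimics had 33 (0.225%) and 13 (0.0885%) for miR-146a-5p, 30 (0.204%) and 35 (0.238%) for miR-130a-3p, 55 (0.374%) and 73 (0.497%) for miR-151a-3p, and 96 (0.653%) and 74 (0.504%) for let-7d-3p. The let-7e-5p array thus had the fewest probe sets of its own on the high side and the second fewest on the low side, and none on either side reached a gap of 2-fold.

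Genes on the lists of let-7 targets were lower with let-7e-5p more often than genes at large. One list held targets reported in the literature and one held genes predicted from conserved sites, both compiled from general knowledge. Earlier results of these data were known when the members were chosen, so the counts are not independent of the data. Of the 68 members measured, 45 were lower than with mimic NC and 23 higher, with a median of -0.15, where 49.9% of all named genes were lower, 48.6% higher and the median was 0.00. The let-7e-5p array held the lowest value of the 6 for 24 of the 68, or 35.3%, against 15.3% of all named genes. On the other arrays this number was 12 for let-7d-3p (17.6%, against 18.8% of all named genes), 12 for miR-146a-5p (17.6% against 15.9%), 8 for mimic NC (11.8% against 13.3%), 7 for miR-151a-3p (10.3% against 18%) and 4 for miR-130a-3p (5.88% against 15.7%). It was clearest among predicted targets, of which 13 of 30 had their lowest value there (43.3%), against 11 of 38 reported targets (28.9%). Among members above background on 1 array or more, it was 13 of 28 predicted (46.4%) and 7 of 28 reported targets (25.0%). The let-7d-3p array was lowest for just as many of these reported targets, 7 of 28. Of all such named genes, 16.2% were lowest with let-7e-5p and 22.1% with let-7d-3p. Shares of this size were also found outside the target lists. The lowest value was with let-7e-5p for 7 of 16 ribosomal protein genes (43.8%) and 6 of 15 genes of N-glycan transfer (40.0%). Against the median of the other 4 mimics, predicted targets were lower in 25 of 30 with a median of -0.32, and reported targets in 21 of 38 with a median of -0.115. Reported targets were thus low relative to mimic NC with every mimic, with medians of -0.20 for let-7e-5p and -0.07 to -0.115 for the other 4, whereas predicted targets had a median of -0.09 with let-7e-5p and 0.115 to 0.215 with the others, all of them taken from the same control array. The differences were small, with 7 members at least 1.5-fold lower (3.4% of all named genes) and 1 at least 1.5-fold higher (3.67%).

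**Figure D2:**
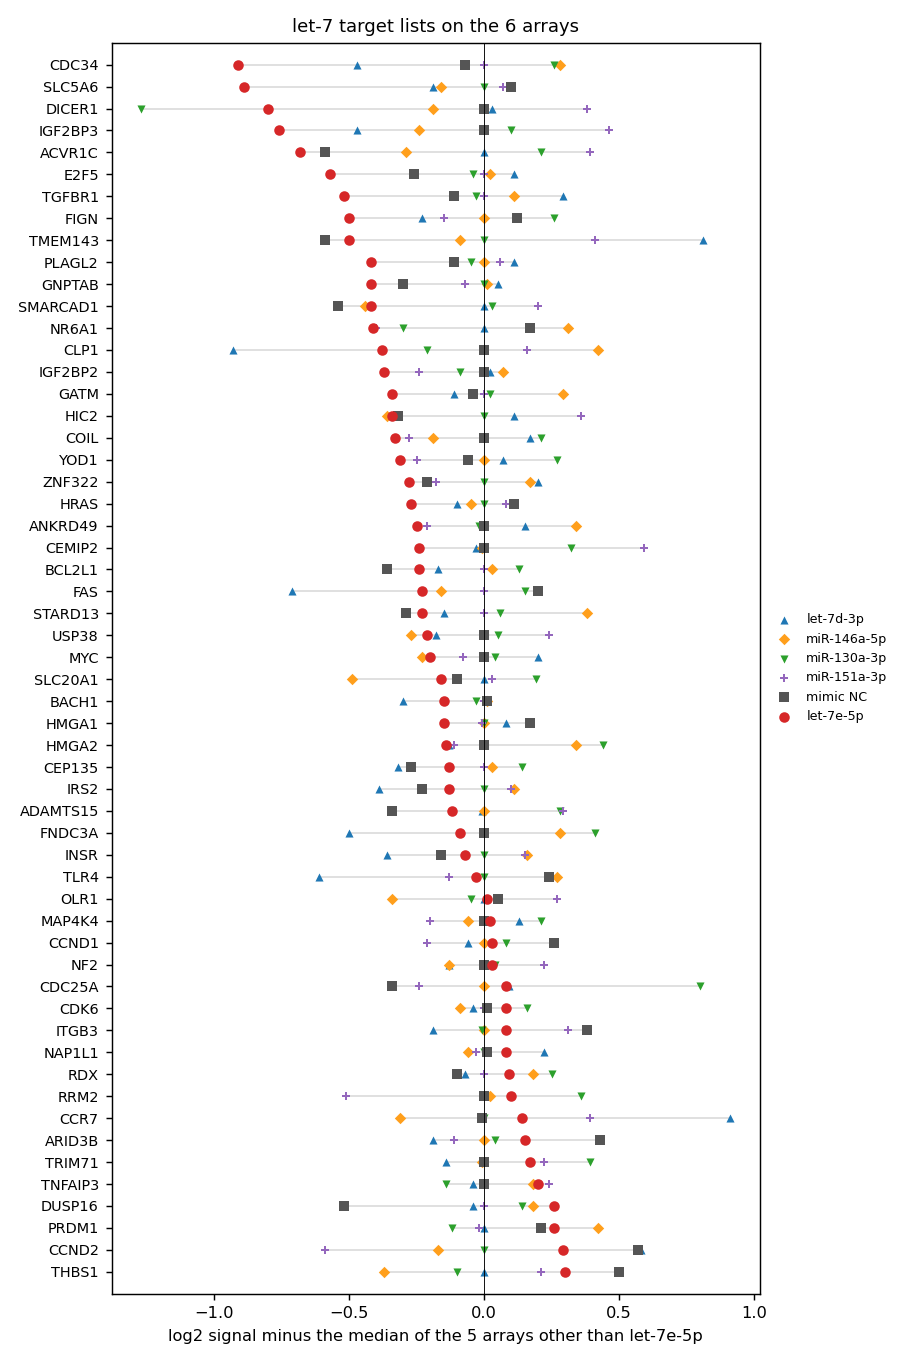
Each row is a gene of the 2 let-7 target lists that was above background on at least 1 array, and symbols give its log2 signal on each of the 6 arrays minus the median of the 5 arrays other than let-7e-5p. Rows are ordered by the let-7e-5p value (large red circle), which lies left of all other arrays for 20 of 56 genes and right of all others for 1, DUSP16. Of all named genes above background on at least 1 array, 16.2% were lowest and 12.4% highest with let-7e-5p.

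SLC5A6, the transporter that brings biotin and pantothenate into cells, was the furthest below the control of the listed genes above background. It read 7.98 with let-7e-5p and 8.97 with mimic NC, and from the lowest up 8.68 with let-7d-3p, 8.71 (miR-146a-5p), 8.87 (miR-130a-3p) and 8.94 (miR-151a-3p). It was 1.99-fold lower than in the control, and the nearest other array was 0.70 above it. It was also the only gene of both lists that stood low with let-7e-5p by the 1.5-fold measure. CDC34, a ubiquitin-conjugating enzyme that lets cells enter S phase, was dimmer, at 4.78 with let-7e-5p against 5.22 to 5.97 on the other 5 arrays, and at least 1.17-fold below the control.

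Of 10 reported targets that are oncofetal or act on RNA, 9 were lower with a median of -0.30, and 7 were above background. IGF2BP3, which binds and stabilises growth-related mRNAs, read 8.16 with let-7e-5p, 8.92 with mimic NC, 8.45 with let-7d-3p, 8.68 (miR-146a-5p), 9.02 (miR-130a-3p) and 9.38 (miR-151a-3p). It was 1.69-fold lower than the control. IGF2BP2 was 1.29-fold lower (11.13, against 11.26 to 11.57 on the other 5 arrays). HMGA1, an architectural protein of chromatin, was 1.25-fold lower (15.40 against 15.54 to 15.72). HMGA2, its relative and the textbook target of let-7, was 1.10-fold lower, and its value of 8.48 was next to 8.49 with let-7d-3p. The stem cell factor TRIM71 was the exception, 1.13-fold higher than in the control. LIN28A and LIN28B, which block the maturation of let-7, and IGF2BP1 counted among the lower genes but were under background on all 6 arrays. So was IGF1R, a growth factor receptor, which had the lowest difference of all listed targets (3.71 against 4.79 with mimic NC).

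Several further targets had their lowest value with let-7e-5p at moderate differences. TGFBR1, the type I receptor for TGF-beta, read 12.50 against 12.91 to 13.31 elsewhere and was 1.33-fold below the control. E2F5, a transcription factor that holds back cell cycle genes, read 7.09 against 7.40 to 7.77. PLAGL2, a zinc finger transcription factor, read 8.29 against 8.60 to 8.82. For each of these genes mimic NC was the lowest of the other 5 arrays, so the steps to the other mimics were larger than the step to the control. ACVR1C, a receptor of the TGF-beta family, differed from the control by only -0.09 and from the median of the other 4 mimics by -0.79. Also lowest with let-7e-5p were the GTPase HRAS (8.97 against 9.14 to 9.35), the orphan nuclear receptor NR6A1 (5.73 against 5.74 to 6.45) and the Cajal body protein COIL (9.28 against 9.33 to 9.82).

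Other listed targets did not lie at the bottom. The cell cycle genes of the reported list were split, 7 lower and 7 higher. CCND1, the cyclin that drives G1, was 1.17-fold below the control but within the range of the other mimics (14.36 against 14.12 to 14.41). CDK6, its partner kinase, was 1.05-fold higher than in the control. MYC was 1.15-fold lower, with a value of 10.96 against 10.93 on the lowest array. CDC25A, a phosphatase that switches on cyclin-dependent kinases, was 1.34-fold higher. DUSP16, a phosphatase of the kinase JNK, was 1.72-fold higher at 6.63, where mimic NC was the lowest array (5.85) and the other 4 mimics read 6.33 to 6.55. TLR4, the endotoxin receptor, was 1.21-fold lower, inside the range of the other arrays.

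DICER1 connects the targets with the miRNA pathway, since the enzyme both makes let-7 and is itself a let-7 target. It read 8.90 with let-7e-5p against 9.70 with mimic NC, 9.73 with let-7d-3p, 9.51 with miR-146a-5p and 10.08 with miR-151a-3p, and was 1.74-fold below the control. Its lowest value, 8.43, was with miR-130a-3p. In the pathway as a whole 11 of 18 genes were lower and 7 higher, with a median of -0.04. XPO5, which carries miRNA precursors out of the nucleus, was at its lowest with let-7e-5p (9.73 against 9.88 to 10.18). TNRC6B, the scaffold through which Argonaute silences mRNAs, was 1.32-fold lower but lower still with miR-130a-3p. TUT7, which adds uridines to let-7 precursors, was at its highest with let-7e-5p (15.09 against 14.56 to 14.76).

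The genes that stood lowest on the let-7e-5p array were mostly outside the target lists. Genes standing low, like those standing high below, were taken by their gap to the other 5 arrays, so that gap followed from the choice. The functional groups only order the text, and their shares among all genes were not computed. FAM220A had the widest gap, 1.95-fold, at 6.70 against 7.66 to 8.17 on the other 5 arrays. PPP1R35, a protein of growing centrioles, read 6.59 against 7.50 to 7.87. KRTCAP2, a subunit of the oligosaccharyltransferase that attaches N-glycans, read 13.05 against 13.95 to 14.16, a narrow range on the other 5 arrays. AKNA, an AT-hook protein of the centrosome, showed an even narrower range on the other arrays, 9.53 to 9.63, with 8.75 on the let-7e-5p array.

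Genes of RNA metabolism were among them. GTF3C1, the largest subunit of the factor that recruits RNA polymerase III, read 7.87 against 8.60 to 8.87. TSEN54, a subunit of the endonuclease that splices tRNAs, read 5.66 against 6.33 to 6.78. NUFIP1, an assembly factor of small nucleolar RNPs, read 6.72 against 7.39 to 7.74. PUDP, a phosphatase of modified nucleotides, read 8.99 against 9.67 to 10.37.

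Signalling and metabolic genes made up the rest. GSK3B, the kinase that restrains beta-catenin and glycogen synthesis, was 1.89-fold lower than in the control, with 11.42 against 12.06 to 12.40 on the other 5 arrays. TLR7, the endosomal sensor of single-stranded RNA, read 8.18 with let-7e-5p, 8.80 with mimic NC, 8.84 (miR-146a-5p), 9.10 (let-7d-3p), 9.26 (miR-130a-3p) and 9.41 (miR-151a-3p). Set against the other 4 mimics, their median was 2.00-fold higher. POU2F2, an octamer-binding transcription factor of B cells and macrophages, read 7.37 against 8.19 to 8.52. TRPM2, a calcium channel opened by ADP-ribose, read 7.33 against 7.95 to 8.27, and PGAP6, a phospholipase that trims GPI anchors, 11.09 against 11.71 to 12.30. H6PD, which makes NADPH inside the endoplasmic reticulum, read 9.72 against 10.31 to 10.69. ROBO4, a guidance receptor, and ASAH2, the neutral ceramidase, complete the set at 6.56 against 7.16 to 7.98 and 5.29 against 5.95 to 6.50.

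Fewer named genes stood high, 7 against 17 that stood low, but the filter on background differed between the directions. To stand high only let-7e-5p had to exceed background, and to stand low all 5 other arrays had to. With no such filter 36 probe sets stood high and 36 low. RGS20, which switches off G protein alpha subunits, read 6.28 against 4.27 to 5.30, all under background, and was at least 1.86-fold above them. CNFN, a protein of the cornified envelope of skin, read 7.61 against 6.39 to 6.84. CAV2, a caveolin, read 7.81 against 6.72 to 7.15, and LRP12, a receptor of the LDL receptor family, 12.51 against 10.98 to 11.87. PPP1R14C, an inhibitor of protein phosphatase 1, read 8.01 against 7.04 to 7.40. P2RY14, a receptor for UDP-sugars, and ANKRD23 were likewise under background on the other 5 arrays. Counted from the background they stood at least 1.03-fold and 1.38-fold above it, so their gap of 1.5-fold rests on signals under background.

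**Figure D3:**
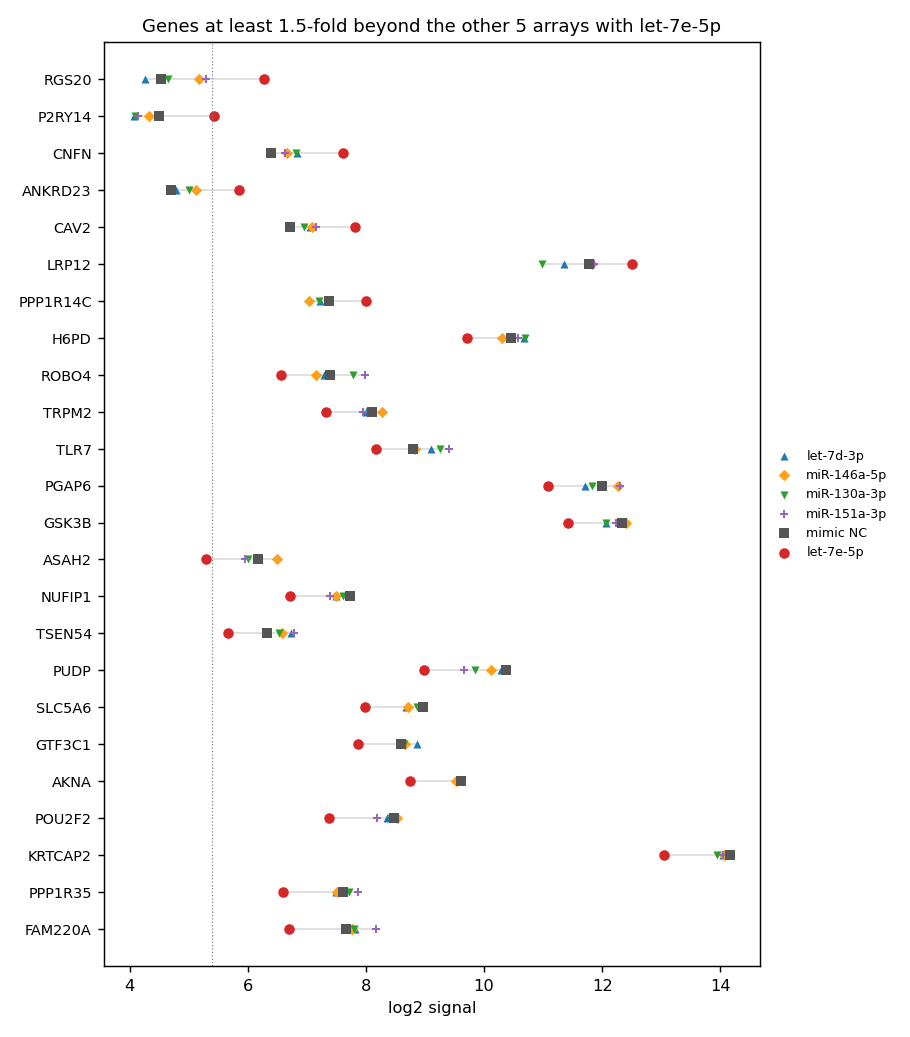
Log2 signals on the 6 arrays for the 24 named genes whose let-7e-5p value (large red circle) lay at least 1.5-fold beyond all other arrays. The 7 upper genes stand high and the 17 lower ones stand low, and the dotted line marks the background of 5.39.

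Chemokine genes gave the 4 largest ratios among named genes above background on both arrays. Some unnamed probe sets differed as much, 1 of them from 6.19 with mimic NC to 3.98, under background, with let-7e-5p. Each of the 4 that passed 3-fold lay far above 4 of the other arrays and close to the remaining one, miR-146a-5p. CCL2, which draws monocytes from the blood, read 10.83 with let-7e-5p and 10.43 with the miR-146a-5p mimic, and 8.67 (mimic NC), 8.58 (let-7d-3p), 8.56 (miR-130a-3p) and 8.40 (miR-151a-3p) on the others. CXCL11, a ligand of the receptor CXCR3 on activated T cells, read 12.02 and 12.05 on the first pair and 9.95, 8.75, 9.28 and 9.72 on the other arrays in the same order. CXCL10, a second CXCR3 ligand, read 15.54 and 15.42, then 13.59, 13.03, 13.06 and 13.37. CCL8, a further monocyte attractant, read 10.90 and 10.84, then 9.18, 8.39, 9.47 and 8.67. These genes were taken because they passed 3-fold against mimic NC, so their gap to the control followed from the choice. The share of all genes with the let-7e-5p and miR-146a-5p values above the other 4 is not given here. The step from let-7e-5p to miR-146a-5p was 0.40 for CCL2, 0.12 for CXCL10, 0.06 for CCL8 and -0.03 for CXCL11. CXCL9, the last CXCR3 ligand, was under background on all 6 arrays.

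**Figure D4:**
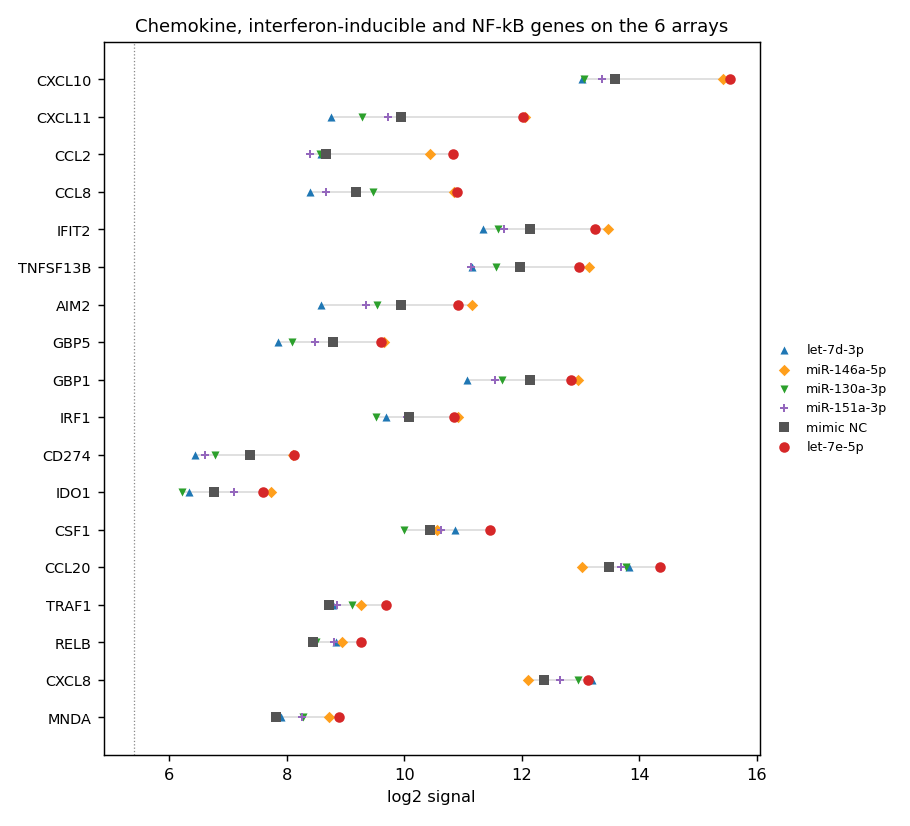
Log2 signals on the 6 arrays for 18 chemokine, interferon-inducible and NF-kB related genes, with the background of 5.39 as a dotted line. From CXCL10 down to IDO1 the let-7e-5p (red circle) and miR-146a-5p (orange diamond) values lie together at the upper end, while for CSF1, CCL20 and CXCL8 the miR-146a-5p value lies well below the let-7e-5p value.

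Chemokines outside this set differed in which arrays were high. CCL20, which recruits cells with the receptor CCR6, was 1.83-fold above the control and at its highest with let-7e-5p (14.36), while miR-146a-5p was the lowest array (13.02). CXCL8, the main neutrophil attractant, was 1.67-fold above the control at 13.12, and its values were 13.19 with let-7d-3p and 12.10 with miR-146a-5p. All 7 neutrophil-attracting CXC chemokines were higher than in the control, but their median was only 0.07. Of 14 CC chemokines 10 were higher and 4 lower (median 0.19). The lower ones included CCL17, CCL18 and CCL22, which attract T cells. CCL18 was 1.35-fold lower and CCL22 1.21-fold lower than in the control. Against the median of the other 4 mimics, CCL17, CCL18 and CCL22 differed by only -0.13, -0.13 and -0.15.

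Interferon-stimulated genes, which block viral growth, formed the broadest group. In 4 lists of such effectors with 66 genes measured, 57 were higher than with mimic NC and 8 lower, with a median of 0.245. Against the other mimics the split was sharper: 65 of 66 were above the median of the other 4, against 8644 of all 17663 named genes. Their place among the 6 arrays was nevertheless second rather than first. The highest value was on the miR-146a-5p array for 57 of the 66 (13.7% of all named genes). It was on the let-7e-5p array for 5 (13.1% of all named genes), and let-7e-5p was below miR-146a-5p by a median of 0.19. The lowest value was on the let-7d-3p array for 52 (18.8% of all named genes). Side by side, the medians against mimic NC were 0.245 (let-7e-5p), 0.40 (miR-146a-5p), -0.235 (miR-151a-3p), -0.245 (miR-130a-3p) and -0.525 (let-7d-3p). All 5 comparisons share the one control array.

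IFIT2, which binds foreign RNA, had the highest ratio of the 66, 2.14-fold. It read 13.24 with let-7e-5p and 13.47 with the miR-146a-5p mimic, against 12.14 (mimic NC), 11.34 (let-7d-3p), 11.59 (miR-130a-3p) and 11.70 (miR-151a-3p). Guanylate-binding and Mx proteins, GTPases that act on intracellular microbes, had the highest median of the 4 lists, 0.51 over 9 genes. GBP5 read 9.61 and 9.65 with the let-7e-5p and miR-146a-5p mimics, then 8.79 (mimic NC), 7.85 (let-7d-3p), 8.09 (miR-130a-3p) and 8.47 (miR-151a-3p), and was 1.77-fold above the control. GBP2 and GBP1 were 1.69-fold and 1.61-fold higher, and GBP3 was 1.42-fold higher and at its highest with let-7e-5p. GBP6 was the exception, 1.35-fold lower near background. The ubiquitin-like protein ISG15 was 1.51-fold higher and HERC5, the ligase that attaches it, 1.44-fold, with all 5 measured genes of ISG15 conjugation higher. IFI27, a sensitive marker of interferon action, was 1.82-fold higher (10.76, against 10.86 with miR-146a-5p and 9.16 to 9.90 elsewhere).

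Interferons themselves were close to background. Of 19 genes of type I and type III interferons, 2 were above background on each of the arrays compared. IRF1 and IRF7, transcription factors that amplify the interferon response, were 1.71-fold and 1.58-fold higher, at 10.85 and 6.96. JAK2, a receptor-bound kinase, was 1.27-fold higher. IFNAR1, a chain of the type I receptor, was 1.15-fold lower and IRF8, a factor of myeloid cells, 1.21-fold lower and at its lowest with let-7e-5p. SOCS1 and SOCS3, feedback inhibitors of this pathway, were under background. Of 8 genes of DNA sensing 6 were higher (median 0.15). AIM2 and MNDA of the PYHIN family and CGAS, which makes the second messenger cGAMP from DNA, were 1.96-fold, 2.10-fold and 1.55-fold higher. STING1, the receptor for cGAMP, was level with the control (12.42 against 12.46). Genes of RNA sensing differed less, with 8 of 12 higher, 4 lower and a median of 0.09. The highest were IFIH1, RIGI and DHX58, but 0 of the 12 were 1.5-fold higher, and 1, TLR7, was at least 1.5-fold lower.

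Of 14 genes that interferon-gamma controls most, 10 were higher and 3 lower (median 0.25). CD274, which encodes the checkpoint ligand PD-L1, read 8.12 with let-7e-5p and 8.10 with the miR-146a-5p mimic, against 7.38 (mimic NC), 6.44 (let-7d-3p), 6.77 (miR-130a-3p) and 6.60 (miR-151a-3p). It was 1.67-fold above the control, and 2.70-fold above the other 4 mimics at their median. IDO1, which degrades tryptophan, was 1.79-fold higher. At the low end of this list NLRC5, a regulator of MHC class I genes, and FCGR1A, a receptor for IgG, were 1.07-fold and 1.06-fold lower. Genes of MHC class I presentation were higher in 13 of 17 (median 0.19), none by 1.5-fold, and the immunoproteasome subunits PSMB8 and PSMB9 were each 1.21-fold higher. The light chain B2M was 1.06-fold lower.

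Promoters of these genes were read for the interferon-stimulated response element, searched on both strands as GAAA, any 2 bases and GAAA again, from 250 bases before to 50 bases after each start. It was found in 3.57% of all promoters of the RefSeq table. Of promoters of genes at least 2-fold higher with the brighter array above background 5 of 39 held it (12.8%), and of those at least 2-fold lower 1 of 32 (3.12%). At 1.5-fold the shares were 5.03% and 1.82%. All these shares count promoters, and some genes had several. The 39 promoters belonged to 27 genes and the 32 to 23. The TNFSF13B site at chr13:108269639-108269664 lay in both overlapping promoters of that gene and was counted in each. The IFI27 sites, in the 1.5-fold set, were likewise counted in both of its promoters. Shares per gene were not computed, so repeated counting of a site was not removed. The windows of genes with the larger ratios are shown with the match in capitals, on the strand of transcription.
CXCL10: atgttttgGAAAGTGAAAcctaattc
TNFSF13B: caaaaactGAAAGTGAAAtgaggaag
MNDA: tgacatctGAAATAGAAAgctacaaa
AIM2: taggccacTTTCTGTTTCcaatcagt
They lie at chr4:76023701-76023726 (minus strand), chr13:108269639-108269664 (plus strand), chr1:158831258-158831283 (plus strand) and chr1:159076939-159076964 (minus strand) of GRCh38.p14. CXCL10 also held a match to the NF-kB element, searched on both strands as GGG, any 2 bases and then TTTCC or TTCCC (found in 3.88% of all promoters), at chr4:76023602-76023627 on the minus strand.
CXCL10: tgcaacatGGGACTTCCCcaggaaca
The CCL8 and CXCL11 promoters of the table had no match to either. A match is a stretch of letters, and binding was not measured.

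Some genes of NF-kB, the transcription factor of inflammation and survival, were at their highest with let-7e-5p, above miR-146a-5p as well. TRAF1, an adaptor of TNF receptors and a common NF-kB target, read 9.68 with let-7e-5p and 8.71 with mimic NC, against 8.78 (let-7d-3p), 9.26 (miR-146a-5p), 9.10 (miR-130a-3p) and 8.85 (miR-151a-3p). RELB, a subunit of the alternative NF-kB pathway, was 1.77-fold higher (9.26 against 8.44 to 8.94 on the other 5) and NFKB1 was 1.36-fold higher (11.11 against 10.67 to 10.84). CSF1, the growth factor of macrophages, was 2.01-fold higher, with 11.45 against 10.87 on the next array, and its miR-146a-5p value was 10.55. CHUK, the kinase IKK-alpha, was 1.67-fold above the control but within the range of the other arrays. Of 17 NF-kB subunits and inhibitors 13 were higher (median 0.08). As a list they were not particular to let-7e-5p. Their medians against mimic NC were 0.13 with miR-151a-3p, 0.11 with miR-146a-5p, 0.04 with let-7d-3p and 0.0 with miR-130a-3p. The highest value was on the let-7e-5p array for 4 of the 17 and on the miR-146a-5p array for 5 (13.1% and 13.7% of all named genes). NFKB2 was 1.10-fold lower.

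Inflammatory cytokines as a list were split, with 10 of 22 higher, a median of -0.015 and a mean of 0.041. IL12A, a chain of interleukin-12, was 1.40-fold higher, and the co-stimulatory ligand CD80 was 1.39-fold lower. EBI3, a chain of interleukin-27, was at least 1.07-fold lower, and IL6 was under background on all 6 arrays. Of 16 ligands of the TNF superfamily 11 were higher (median 0.165). The B cell survival factor TNFSF13B and the death ligand TNFSF10 had the pattern of the interferon genes. TNFSF10 was 1.60-fold above the control at 13.18, with 13.95 on the miR-146a-5p array. TNFSF18, a ligand of the T cell receptor GITR, was at its highest with let-7e-5p (6.01 against 5.14 to 5.68).

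Metallothioneins, which buffer zinc and copper in the cell, were higher in 8 of 10 genes with a median of 0.425. For 6 of the 10 the let-7e-5p array was the highest of the 6 (13.1% of all named genes). MT2A read 14.57 with let-7e-5p, then 14.31 (miR-146a-5p), 13.92 (let-7d-3p), 13.78 (mimic NC), 13.69 (miR-130a-3p) and 13.29 (miR-151a-3p). It was 1.73-fold above the control, and MT1F, MT1B and MT1X were 1.72-fold, 1.53-fold and 1.51-fold higher. MT1E and MT3 were close to the control, at differences of -0.05 and -0.06. Probes of these genes may share signal, since their sequences are much alike. Metallothionein genes are switched on by the zinc sensor MTF1, as is the zinc exporter SLC30A1, which was 1.25-fold lower and at its lowest with let-7e-5p.

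The metal response element to which MTF1 binds was searched as TGCACNC or TGCGCNC on both strands. All 5 metallothionein promoters of the table held it, and so did 29.6% of all promoters. A window of MT2A at chr16:56608522-56608544 (plus strand), 54 bases before the start, is shown with the match in capitals.
MT2A: ggggctttTGCACTCgtcccggc

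Genes of DNA replication were higher in 32 of 38, with a median of 0.255. CDC7, the kinase that fires replication origins, read 8.45 with let-7e-5p against 7.75 with mimic NC, 7.59 (let-7d-3p), 8.06 (miR-146a-5p), 8.49 (miR-130a-3p) and 8.24 (miR-151a-3p). RPA3, a subunit of the single-strand binding complex, was 1.65-fold higher and at its highest with let-7e-5p (8.09 against 7.28 to 7.72). For most of the list, 28 of 38, the highest array was miR-130a-3p (16.6% of all named genes). Medians against mimic NC were 0.465 with miR-130a-3p, 0.065 with miR-146a-5p, -0.06 with miR-151a-3p and -0.155 with let-7d-3p. PRIM2, a primase subunit, went the other way, 1.39-fold lower and at its lowest with let-7e-5p.

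Other genes of dividing cells were also higher more often than the 48.6% of all named genes. Of 17 genes of DNA repair 14 were higher (median 0.14), led by BARD1, the partner of BRCA1, at 1.68-fold. Of 37 genes of mitosis 27 were higher (median 0.14). With miR-130a-3p the medians against mimic NC were larger, 0.33 for repair and 0.32 for mitosis. Against the median of the other 4 mimics, let-7e-5p had a median of 0.255 for repair. For mitosis it was 0.04, with 20 genes above and 16 below. Compared with the control, KIF11, a spindle motor, was 1.62-fold higher with let-7e-5p. AURKA and AURKB, kinases of the spindle and of chromosome segregation, were 1.21-fold and 1.42-fold lower. Among factors of G1 and S phase, CCNE2 was 1.54-fold higher and E2F7 1.46-fold higher. CDKN2D, an inhibitor of CDK4 and CDK6, was at least 1.5-fold lower.

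Proteasome genes differed by little, 20 of 24 higher with a median of 0.095. The let-7e-5p array was the highest of the 6 for 9 of them (13.1% of all named genes), while mimic NC was the lowest for 9 (13.3%). PSMA4, a subunit of the core particle, was 1.66-fold higher (13.58 against 12.85 in the control and 13.11 to 13.45 with the other mimics). Heat shock genes were higher in 11 of 13 (median 0.18), none by 1.5-fold.

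Groups with more genes on the lower side had small medians, where 49.9% of all named genes were lower. Against the median of the other 4 mimics they were smaller still. They were -0.045 for N-glycan synthesis and transfer, -0.04 for oxidative phosphorylation and -0.05 for actin and adhesion. Of 15 genes of N-glycan synthesis and transfer 13 were lower (median -0.11), and 6 had their lowest value with let-7e-5p (15.3% of all named genes). Beside KRTCAP2 these included DPAGT1, which starts the lipid-linked glycan, at 12.74 against 13.12 to 13.44. STT3B, a catalytic subunit of the transferase, was 1.23-fold higher. Of 26 genes of oxidative phosphorylation 19 were lower (median -0.105), and UQCRC1 of complex III was the lowest at 1.27-fold. Of these 26, 20 were also lower with miR-130a-3p (median -0.08), 17 with miR-146a-5p (-0.05) and 16 with let-7d-3p (-0.04). With miR-151a-3p 8 were lower (0.04). Of 25 genes of the actin cytoskeleton and adhesion 18 were lower (median -0.10). With let-7d-3p 17 were lower (median -0.09), and that array was lowest for 9, against 6 for let-7e-5p. Medians with the remaining mimics were 0.0 to 0.01. With let-7e-5p ACTN4, which cross-links actin, was 1.29-fold lower and VCL, vinculin, 1.20-fold lower, both at their lowest of the 6 arrays. NEXN, an actin-binding protein in the same list, was 2.43-fold higher, with 7.87 on the let-7e-5p array, 7.50 on the miR-146a-5p array and 6.17 to 6.59 on the others. LPCAT3, which puts polyunsaturated chains into phospholipids under control of LXR, read 9.50 against 9.73 to 10.06.

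**Figure D5:**
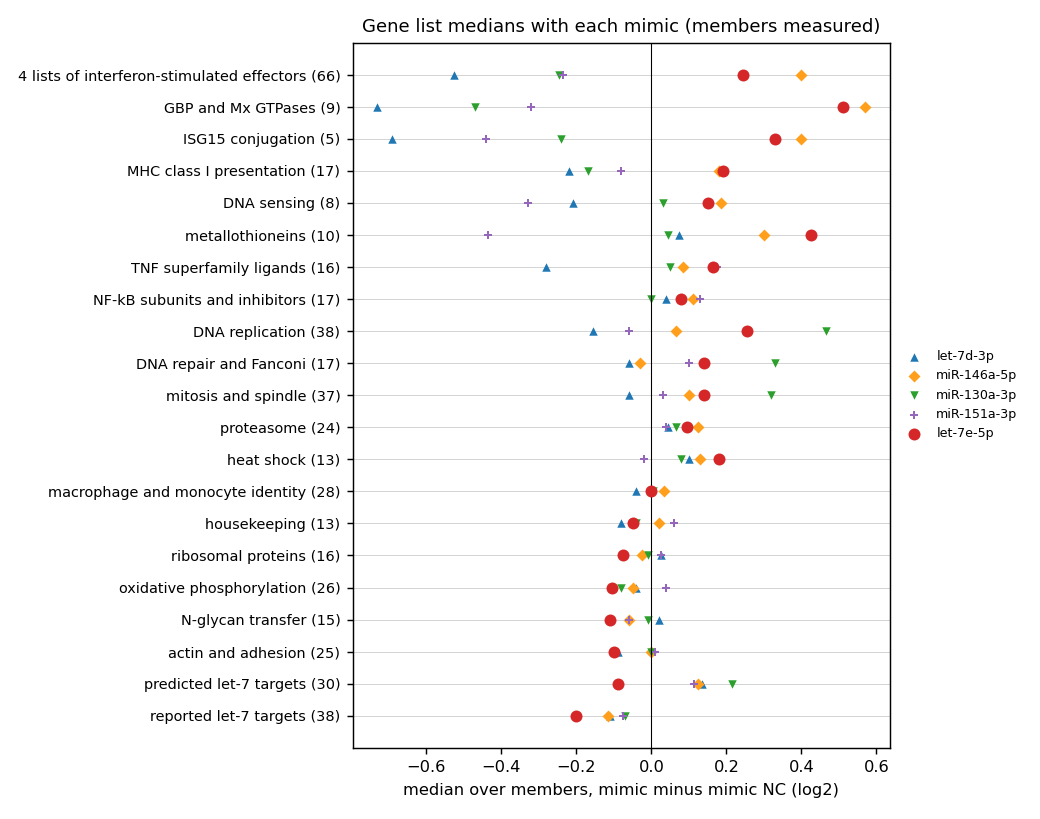
Median log2 difference from mimic NC over the measured members of 21 gene lists (number in brackets), with 1 symbol for each of the 5 mimics, all set against the same control array. With let-7e-5p (red circle) interferon effectors, metallothioneins and DNA replication lie on the right at 0.245, 0.425 and 0.255, macrophage genes lie near 0, and both let-7 target lists lie left of every other mimic.

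A few further genes are given because their let-7e-5p value was the extreme of the 6 arrays. MMP7, a secreted protease, was 2.07-fold above the control and read 7.51 against 6.27 to 6.99. TFPI2, an inhibitor of serine proteases, read 11.71 against 10.75 to 11.13, and IER3, an early response gene of survival signalling, 12.86 against 12.02 to 12.33. UPP1, which splits uridine, read 10.71 against 9.97 to 10.14. VEGFA, the growth factor of blood vessels, was 1.43-fold higher (11.97 against 11.15 to 11.52). On the lower side LMLN, a metallopeptidase, was 2.20-fold below the control (8.49 against 8.92 to 9.72), and ATP6V0D2, a subunit of the proton pump of lysosomes, was 2.04-fold below it (8.32 against 8.69 to 9.35). CYSLTR1, the receptor for cysteinyl leukotrienes, read 14.03 against 14.44 to 14.60.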

How the data were processed

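Labelled RNA of 6 cultures of PMA-treated THP-1 cells was hybridised to 6 Human Clariom S arrays, 1 per mimic. The authors deposited 1 log2 signal for each probe set and array, obtained with RMA (background correction, quantile normalization and median polish), per the submitters' processing notes in Transcriptome Analysis Console 4.0. How RMA was set is not given in the sources used. Quantile normalization gives all arrays nearly the same distribution and would hide a change common to most genes. Values carry 2 decimals, all columns were used, and scanner files were not used here.

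Differences were taken as let-7e-5p minus mimic NC. Gene names came from the annotation of the array platform: 17709 of 21448 probe sets had 1 symbol and 3739 had none, and probe sets of the same gene were averaged. Background was the 95th percentile of 349 probe sets of olfactory receptor genes. A probe set stood high or low when it lay at least 1.5-fold beyond the other 5 arrays. To stand high its own signal had to exceed background, and to stand low those of all 5 other arrays had to. Shares are of the 14692 probe sets above background on at least 1 array. Lists of genes (58 in all, with 970 of 1081 genes measured) were described by counts and medians beside all 17663 named genes outside the Y chromosome. Members and lists were chosen with earlier results of these data known. The text names a selection from the genes past 3-fold, the 15 of largest difference in each direction, those with the widest gaps, all listed let-7 targets, the 3 highest and lowest of each list and lists of up to 12 genes whole. With 1 array per group no test was run. Scripts (Python 3.11.15, numpy 2.4.6, pandas 2.3.3, statsmodels 0.14.6) were tested on simulated data. Alternatives concerned the comparator, the normalization, a pseudocount of 32, the filter on background and the gap.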

Additional observations from a re-analysis of the deposited data

How the results depend on the processing

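With 1 array per group, neither the arrays nor the cultures could be left out in turn, and no setting can show how far 2 cultures with the same mimic would differ. No paired analysis was possible because only 1 array was made per mimic. Array values carry no read depth, and the signal over background sets the limit instead. Differences of genes near 5.39 are uncertain: they may understate the true ratio, or rest on signals under background. Repeating the quantile normalization or removing a trend on mean level (lowess span 0.3) left all 6 counts within 1.5 times of those reported. With a pseudocount of 32, 4 probe sets were at least 3-fold higher and 0 lower, 12 were at least 2-fold higher and 6 lower, and 3 stood high and 10 low. With both arrays above background, 5 and 0 passed 3-fold and 28 and 17 passed 2-fold. With no filter on background, 95 and 102 passed 2-fold and 36 and 36 stood apart. With the background at the 99th percentile (6.82), 26 and 13 passed 2-fold and 5 stood high. Among probe sets with 1 gene symbol, 5 and 1 passed 3-fold and 34 were 2-fold higher. A gap of 2-fold left 0 standing high and 0 standing low, and leaving mimic NC out of the other arrays gave 26 and 30. Against the median of the other 4 mimics 12 probe sets were 2-fold lower. Over all alternatives, 281 of 348 list medians stayed within the limit set for them and 67 moved. Of these medians 27, from 17 lists, changed sign, and none of the 17 lists had a reported median larger than 0.08 in size. Among them were MHC class II genes (0.11 against the median of the other 4 mimics) and Toll-like receptors (-0.18 over members above background). For the 140 genes named, with alternatives chosen after seeing the data, 547 of 560 differences stayed within the limit and 13 did not. Against the median of the other 4 mimics 12 genes changed sign. PDIA4 (-0.08) and VLDLR (-0.07) did so from at least 1.5-fold higher, and GBP6 (0.25), CCND1 (0.06), TLR4 (0.04), B2M (0.02), CXCL9 (0.01), NLRC5 (0.08), STING1, MT1E, MT3 and LIN28A from smaller differences. The cause was not tested.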
